A study of Mus musculus with 48 samples.

Results

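The tumor effect at 16:00 was measured in tibialis anterior muscle of male mice aged 39 to 55 weeks, as the difference between 4 mice with KPC tumors and 4 control mice. KPC mice had been injected in the pancreas with murine KPC pancreatic cancer cells in 50 μl of PBS, and control mice with PBS alone. Each condition held 2 WT mice and 2 FoxP1SkmKO mice, in which a floxed Foxp1 allele is recombined by Cre under the ACTA1 promoter, active in skeletal muscle fibers. C57BL/6J is the genotype written on the WT sample labels, but the series' design text gives WT mice as floxed animals lacking Cre. All mice had been entrained to light from 6:00 and then kept in constant darkness, and 16:00 corresponded to circadian time 34 (CT34). These 8 libraries are the members of the comparison, chosen by their labelled time from the 48 libraries of the series, which cover 24 groups of 2 mice at 6 circadian times.

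Pancreatic tumors of this kind are known for cachexia, in which skeletal muscle loses mass while inflammatory cytokines act on it through JAK and STAT proteins. The muscle clock runs on the activators BMAL1 (encoded by Arntl) and CLOCK, which drive the PER, CRY and REV-ERB repressors that feed back on them. FOXP1 is a forkhead transcription factor. The transcriptome of 1 muscle also holds RNA of connective tissue, nerve, vessels and immune cells, and in such bulk samples fewer cells of a type and less RNA per cell cannot be told apart.

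Total counts on genes ranged from 15072784 to 17237973 in the 8 libraries, and ranked expression between any pair of them correlated with a Spearman coefficient of 0.986 to 0.990. The myofiber genes Acta1 (20600 to 25000 FPKM) and Ckm (2950 to 3400 FPKM) were abundant in every mouse. Of 10 markers of epithelium and pancreas, 6 were listed at 0 in all 8 libraries, among them the tumor cell surface gene Epcam and the acinar gene Prss2.

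No gene passed the test at CT34. Among 15637 genes tested with edgeR's quasi-likelihood test, 0 (0%) had a Benjamini-Hochberg adjusted p under 0.05 for KPC against control mice with genotype held fixed, and the lowest adjusted p was 0.189. An unadjusted p under 0.05 was found for 827 genes, or 5.29%, near the share of 0.05 that this threshold gives where nothing differs. Of these genes 417 (2.67%) were higher and 410 (2.62%) lower in KPC mice. DESeq2 on all 48 libraries also called 0 genes, with 655 at an unadjusted p under 0.05. On the 8 libraries alone, edgeR called 0 and DESeq2 called 23, of which 17 were higher and 6 lower. With no filter on low counts edgeR called 205 on the 48 libraries, all of them among the genes tested above, and limma on log2 FPKM called 0. The median log2 fold change over all genes was 0.006 and the median standard error 0.146. All 4 KPC mice lay above all 4 control mice in 256 genes (1.64%) and below them in 207 (1.32%).

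The same contrast called different numbers of genes at the other times, each with its own 8 mice. At CT26 (08:00), 982 genes (6.28%) were called, 601 higher and 381 lower. At CT38 there were 96 (0.614%), at CT18 there were 9 (0.0576%), at CT30 there was 1 (0.0064%) and at CT22 there were 0 (0%, with 642 at an unadjusted p under 0.05 by edgeR). The difference between CT34 and the mean of the other 5 times passed the test for 0 genes (0%, with 553 at an unadjusted p under 0.05), so that no gene was shown to respond at CT34 in its own way. DESeq2 on all libraries called 1 gene in that comparison, the glucocorticoid- and cytokine-responsive factor Cebpd.

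Genes called at CT26 were spread around 0 at CT34. The 601 genes that were higher at CT26 had a median log2 fold change of 0.34 there and 0.03 at CT34, where 373 had the same sign. For the 381 lower genes the medians were −0.31 and 0.01, and 169 had the same sign. Of the 75 genes higher at CT38, 60 had the same sign at CT34, with medians of 0.62 and 0.14. All 3 higher and all 6 lower genes of CT18 had the same sign at CT34, with medians of 0.48 and −0.59 at CT34.

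Foxp1 was the first gene examined. Its level was 0.605 and 0.626 FPKM in WT control mice, 0.596 and 0.697 in WT KPC mice, 0.482 and 0.634 in FoxP1SkmKO control mice, and 0.641 and 0.653 in FoxP1SkmKO KPC mice. The 4 groups overlapped, and the KPC difference was 0.15 ± 0.122 on the log2 scale (SE; 95% interval −0.10 to 0.40; adjusted p = 0.989). A count over the whole gene, from 100 to 147 reads per library, includes any exon left after recombination and RNA of cells without Cre, so it does not check the genotype labels.

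**Figure D1:**
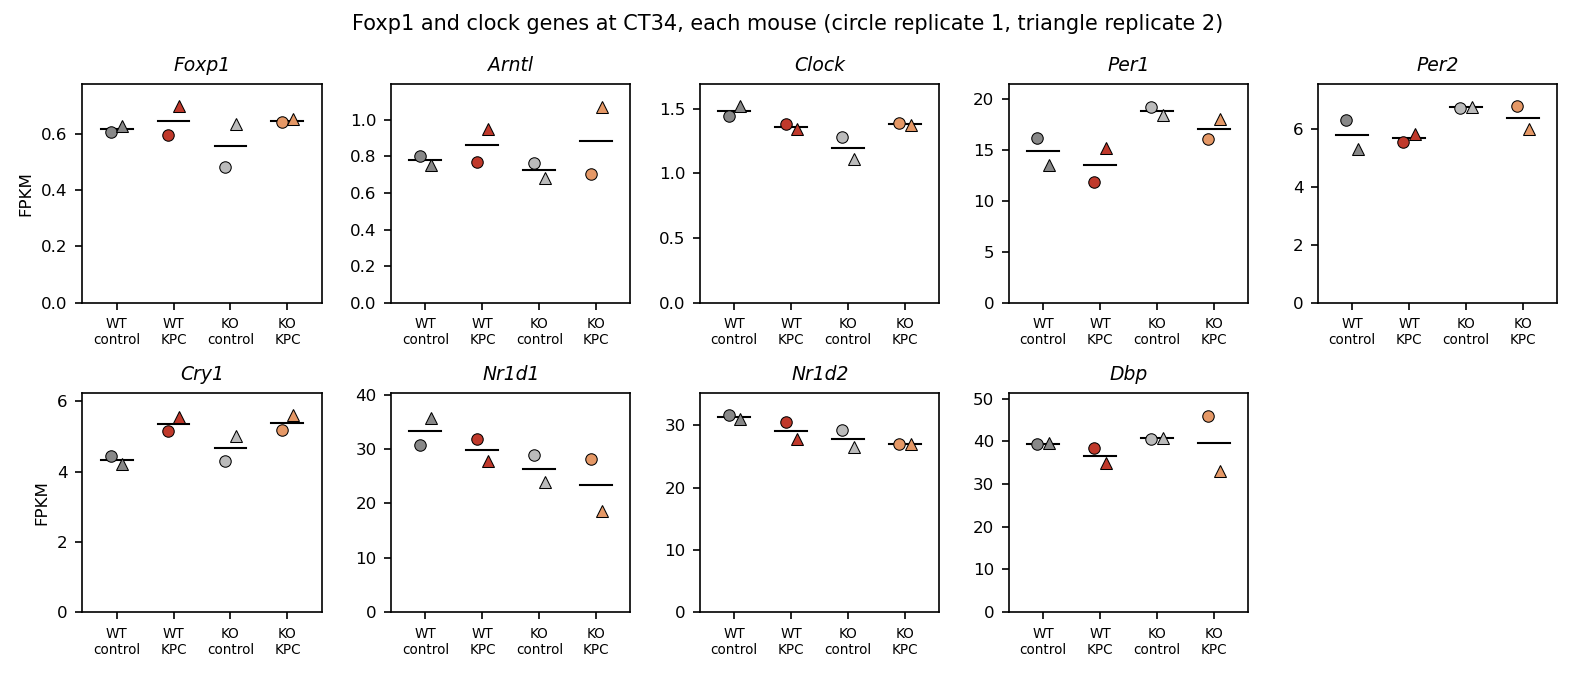
FPKM of Foxp1 and 8 clock genes in each of the 8 mice at CT34, on linear axes from 0; circles are replicate 1, triangles replicate 2, and the horizontal bars group means of 2 mice. Cry1 shows all 4 KPC mice above all 4 control mice, while Per1, Per2, Nr1d1 and Dbp overlap between the conditions.

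None of the core clock genes passed the test at this time. Of 10 repressors tested, 0 passed the test, 1 had an unadjusted p under 0.05, and the list median was −0.08. Cry1, a repressor of the CLOCK and BMAL1 complex, was 4.45 and 4.22 FPKM in WT control, 5.15 and 5.56 in WT KPC, 4.31 and 5.02 in FoxP1SkmKO control, and 5.17 and 5.60 in FoxP1SkmKO KPC mice. Each KPC mouse exceeded each control mouse, by 0.26 ± 0.101 on the log2 scale (adjusted p = 0.848). The period gene Per1 was 16.2 and 13.5 FPKM in WT control, 11.9 and 15.2 in WT KPC, 19.2 and 18.4 in FoxP1SkmKO control, and 16.1 and 18.0 in FoxP1SkmKO KPC mice. Its conditions overlapped, with a log2 difference of −0.13 ± 0.218 and a 95% interval of −0.57 to 0.31.

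Per2 differed by −0.05 ± 0.133 (95% interval −0.32 to 0.23) and Per3 by −0.08 ± 0.0876 on the log2 scale. Nr1d1, which encodes REV-ERBα, was 30.8 and 35.8 FPKM in WT control, 31.8 and 27.8 in WT KPC, 28.9 and 23.9 in FoxP1SkmKO control, and 28.2 and 18.6 in FoxP1SkmKO KPC mice. Its log2 difference was −0.16 ± 0.135. The remaining repressors had log2 differences of −0.07 ± 0.0716 (Nr1d2), 0.01 ± 0.0674 (Cry2), −0.04 ± 0.117 (Bhlhe40), −0.24 ± 0.129 (Bhlhe41) and −0.22 ± 0.241 (Ciart). The 95% interval reached at most 0.31 for Per1, 0.23 for Per2, 0.12 for Nr1d1 and 0.20 for Bhlhe40.

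All 3 activators had positive log2 differences and 0 passed the test. Arntl was 0.801 and 0.754 FPKM in WT control, 0.770 and 0.949 in WT KPC, 0.766 and 0.683 in FoxP1SkmKO control, and 0.701 and 1.07 in FoxP1SkmKO KPC mice, a difference of 0.22 ± 0.179. Clock differed by 0.05 ± 0.0855. Npas2, a paralog of Clock, rested on 1 to 5 reads per library and differed by 0.26 ± 0.725.

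Among 11 clock outputs the median was −0.03, and 2 genes had an unadjusted p under 0.05, among them the nuclear receptor gene Rora, whose product activates Arntl. Rora differed by 0.22 ± 0.0844 (adjusted p = 0.822). The PAR bZIP factor Dbp differed by −0.07 ± 0.126, Tef by −0.03 ± 0.0499 and Hlf by −0.19 ± 0.106. The others were Nfil3 (0.14 ± 0.139), Klf9 (−0.03 ± 0.0637), Klf15 (−0.08 ± 0.127), Tspan4 (−0.15 ± 0.123), Wee1 (−0.03 ± 0.129) and Usp2 (0.01 ± 0.0656).

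Per1 had a log2 difference of 0.77 at CT18, −0.11 at CT22, 1.1 at CT26, 0.52 at CT30 and 0.64 at CT38, of which CT26 passed the test (adjusted p = 0.00524). Its effect at CT34 minus the mean of these was −0.71 ± 0.241 (adjusted p = 1.0). At CT26, 4 of the 10 repressors and 3 of the 11 outputs were called beside 6.28% of all genes, and at CT34 none of either list beside 0%.

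Interferon-inducible and antigen presentation genes were higher in KPC mice as groups, without any gene passing the test. All 15 interferon-inducible GTPases, which restrict intracellular pathogens, had positive log2 differences, with a median of 0.66 against 0.01 over all genes. With 1 library left out this median ran from 0.45 to 0.83. An unadjusted p under 0.05 was reached by 8 of the 15 in the higher direction, beside 2.67% of all genes, and 2 did not overlap between conditions, beside 1.64%. All 13 genes of MHC class I presentation, which displays peptides to CD8 T cells, were also positive, with a median of 0.48 (0.35 to 0.66 with 1 library left out), 7 at an unadjusted p under 0.05 and the same 7 without overlap. At CT18, CT22, CT26, CT30 and CT38 the GTPase medians were 0.23, 0.32, 0.19, 0.95 and 0.64. Those of class I were 0.09, 0.21, 0.10, 0.59 and 0.49. The members described next, apart from the first listed of each group, were chosen after their values were seen.

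The 300 bases from 250 before to 50 after the start site are shown for 3 GTPases and 2 class I genes described below, because every measured member of both groups had a positive difference. They were taken from RefSeq on GRCm38.p6, not the mm39 build of the deposited files. Capitals mark AANNGAAA, the core recognized by interferon regulatory factors, or its reverse complement TTTCNNTT, with overlapping matches merged.
Gbp2 (chr3:142620413-142620712, + strand): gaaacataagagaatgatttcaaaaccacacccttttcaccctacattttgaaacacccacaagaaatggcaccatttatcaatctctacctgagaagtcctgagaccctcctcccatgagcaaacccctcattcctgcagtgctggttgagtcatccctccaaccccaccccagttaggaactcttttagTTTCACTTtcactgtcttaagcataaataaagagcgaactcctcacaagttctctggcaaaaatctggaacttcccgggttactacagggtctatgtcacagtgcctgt
Gbp5 (chr3:142496684-142496983, + strand): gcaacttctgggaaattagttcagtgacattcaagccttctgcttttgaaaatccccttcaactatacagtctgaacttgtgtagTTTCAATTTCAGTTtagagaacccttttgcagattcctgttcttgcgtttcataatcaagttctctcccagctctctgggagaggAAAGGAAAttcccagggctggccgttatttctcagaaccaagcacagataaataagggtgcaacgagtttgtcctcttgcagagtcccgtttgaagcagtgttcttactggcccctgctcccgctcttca
Tgtp1 (chr11:48992197-48992496, − strand): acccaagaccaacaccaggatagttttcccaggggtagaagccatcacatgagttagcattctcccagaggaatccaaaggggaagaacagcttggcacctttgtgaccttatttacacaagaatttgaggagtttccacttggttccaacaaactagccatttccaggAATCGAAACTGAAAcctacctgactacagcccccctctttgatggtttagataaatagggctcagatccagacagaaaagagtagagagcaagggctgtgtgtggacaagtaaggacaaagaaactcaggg
H2-D1 (chr17:35262844-35263143, + strand): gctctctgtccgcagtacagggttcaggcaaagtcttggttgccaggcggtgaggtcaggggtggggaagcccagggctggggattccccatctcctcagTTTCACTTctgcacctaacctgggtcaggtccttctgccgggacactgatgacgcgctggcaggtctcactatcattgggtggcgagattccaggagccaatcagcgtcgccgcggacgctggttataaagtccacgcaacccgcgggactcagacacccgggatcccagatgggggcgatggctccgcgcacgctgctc
H2-Q4 (chr17:35379367-35379666, + strand): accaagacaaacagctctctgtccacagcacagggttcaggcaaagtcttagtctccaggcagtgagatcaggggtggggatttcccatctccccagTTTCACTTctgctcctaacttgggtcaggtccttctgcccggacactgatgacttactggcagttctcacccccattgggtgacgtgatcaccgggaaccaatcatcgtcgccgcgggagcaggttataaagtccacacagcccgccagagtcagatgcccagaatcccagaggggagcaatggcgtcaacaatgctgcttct

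The motif, searched on both strands, was found in 10 of the 10 GTPases with a promoter in the table, in 7 of 11 class I genes and in 11 of 15 type I interferon-stimulated genes. It was present in 26.7% of all 27025 genes with a promoter, in 21.2% of the 11084 tested genes with one, and in 6 of 32 collagens. A match describes the letters of these windows and is not a measure of binding.

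Gbp5, a GTPase of the guanylate-binding family, was 1.05 and 0.808 FPKM in WT control, 1.43 and 3.17 in WT KPC, 1.06 and 0.725 in FoxP1SkmKO control, and 1.45 and 2.03 in FoxP1SkmKO KPC mice. The lowest KPC mouse lay above the highest control mouse. The log2 difference was 1.14 ± 0.300 (95% interval 0.53 to 1.75; adjusted p = 0.569).

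Gbp4 was 1.55 and 1.44 FPKM in WT control, 3.13 and 6.26 in WT KPC, 2.11 and 1.01 in FoxP1SkmKO control, and 2.73 and 4.45 in FoxP1SkmKO KPC mice. Again the conditions did not overlap, with replicate 2 the higher KPC mouse in both genotypes and a log2 difference of 1.43 ± 0.398 (adjusted p = 0.672). Tgtp1, an interferon-inducible GTPase counted with 12 to 73 reads, was 0.269 and 0.233 FPKM in WT control, 0.943 and 1.55 in WT KPC, 0.662 and 0.304 in FoxP1SkmKO control, and 0.599 and 1.19 in FoxP1SkmKO KPC mice. One FoxP1SkmKO control mouse exceeded one FoxP1SkmKO KPC mouse, and the log2 difference was 1.6 ± 0.521 (adjusted p = 0.764). Reads of Tgtp1 and its near-identical copy Tgtp2 may be split between them. The first listed members, Gbp2 and Gbp3, had log2 differences of 0.62 ± 0.286 and 0.54 ± 0.308.

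**Figure D2:**
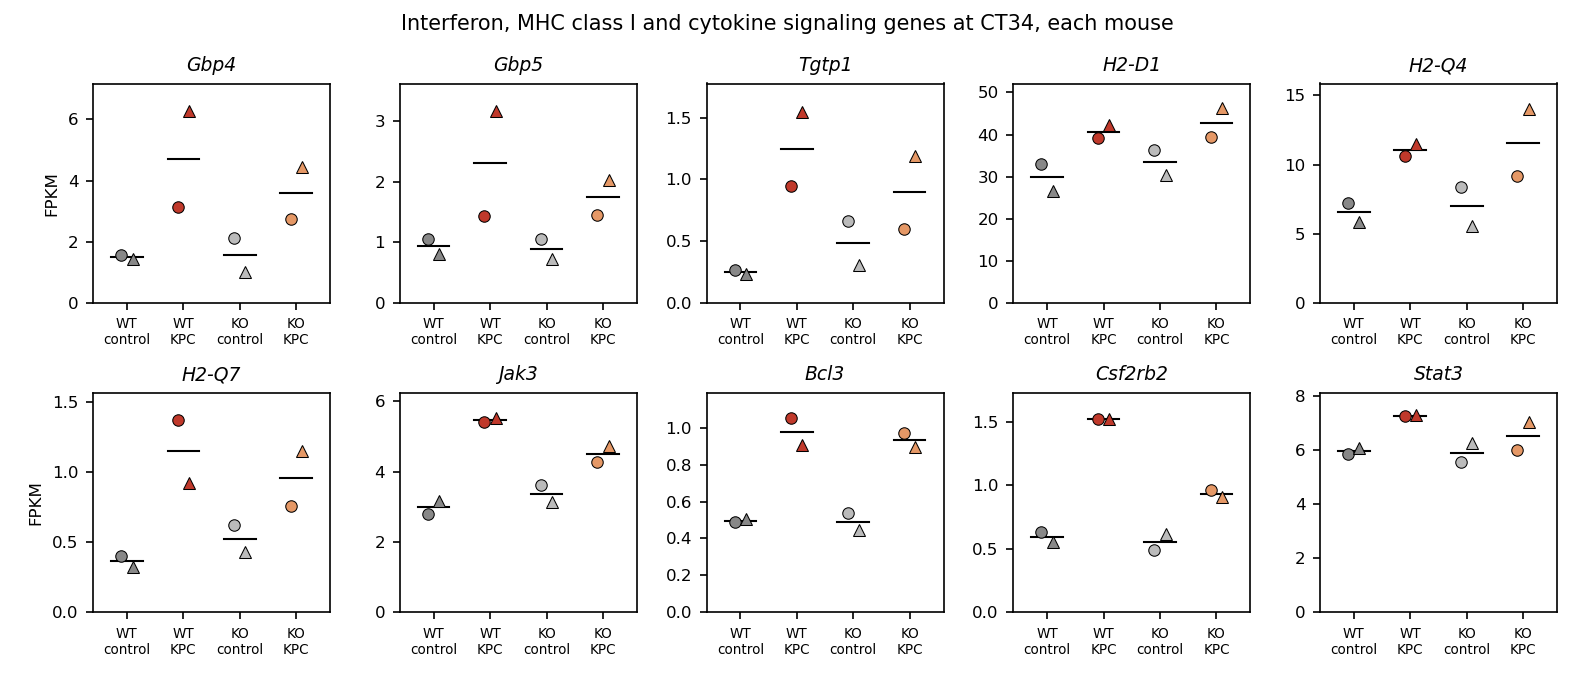
FPKM of interferon, MHC class I and cytokine signaling genes in each mouse at CT34, on linear axes from 0; circles are replicate 1, triangles replicate 2, bars group means of 2 mice. In Gbp4, Gbp5, H2-D1, H2-Q4, H2-Q7, Jak3, Bcl3 and Csf2rb2 every KPC mouse lies above every control mouse, and in Tgtp1 and Stat3 the FoxP1SkmKO groups overlap.

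The classical class I gene H2-D1 was 33.0 and 26.6 FPKM in WT control, 39.2 and 42.2 in WT KPC, 36.4 and 30.4 in FoxP1SkmKO control, and 39.3 and 46.4 in FoxP1SkmKO KPC mice. All KPC mice were higher, by 0.41 ± 0.172 on the log2 scale (adjusted p = 0.910). H2-K1, the first listed, differed by 0.41 ± 0.215 with overlapping conditions. The class Ib gene H2-Q4 was 7.25 and 5.81 FPKM in WT control, 10.6 and 11.5 in WT KPC, 8.40 and 5.56 in FoxP1SkmKO control, and 9.15 and 14 in FoxP1SkmKO KPC mice. Its conditions were separate and its log2 difference was 0.75 ± 0.230 (adjusted p = 0.704).

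H2-Q7 differed by 1.27 ± 0.394, the peptide transporter subunit Tap1 by 0.79 ± 0.346, and the immunoproteasome subunits Psmb8 and Psmb9 by 0.69 ± 0.316 and 0.63 ± 0.267, all without overlap. Class I genes are close copies of one another, and the authors' counting may have divided reads among them. Over 49 proteasome genes the median was 0.02, and the 2 with an unadjusted p under 0.05 were higher.

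Related lists were higher by less. The 8 class II genes were all positive with 1 at an unadjusted p under 0.05, and their median of 0.40 was 0.21 without WT control replicate 2 and 0.64 without WT control replicate 1. H2-Aa and H2-Ab1 differed by 0.25 ± 0.285 and 0.34 ± 0.317. Of 22 type I interferon-stimulated genes 20 were positive (median 0.28) and 1 had an unadjusted p under 0.05, the ubiquitin-like Isg15. Its level was 0.653 and 0.621 FPKM in WT control, 0.526 and 2.23 in WT KPC, 0.754 and 0.832 in FoxP1SkmKO control, and 0.853 and 1.75 in FoxP1SkmKO KPC mice, so that replicate 2 was high in both KPC groups. Its log2 difference was 0.90 ± 0.404, and 0.22 without WT KPC replicate 2. The interferon effector Ifit1 differed by 0.42 ± 0.264.

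Markers of immune cells were low and uneven. Summed FPKM of 11 macrophage markers ran from 13.4 to 27.9 in control and from 17.3 to 25.9 in KPC mice. Of 10 T and B cell markers only Cd3e was tested, at 0.114 to 0.197 FPKM in control and 0.0834 to 0.279 in KPC mice. Ly6g, the defining neutrophil marker, was listed at 0 in all 8 mice, and 4 of 10 neutrophil markers were tested. S100a9 was 0.110 and 0.358 FPKM in WT control, 2.24 and 1.43 in WT KPC, 0.508 and 0.125 in FoxP1SkmKO control, and 0.230 and 0.118 in FoxP1SkmKO KPC mice, or 1 to 19 reads. S100a8, first in that list, differed by 0.95 ± 1.38. The macrophage gene Cd68 differed by 0.53 ± 0.375. The part of these cells in the interferon and class I values was not tested.

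Some genes of cytokine signaling separated the conditions. All KPC mice lay above all control mice in 3 of 18 genes of IL-6 family and STAT3 signaling, beside 1.64% of all genes. The same held for 1 of 4 tested genes of the common beta receptor family. Apart from the first listed of each group, the genes described were chosen after their values were seen. Jak3, a kinase paired with the common gamma chain of cytokine receptors, was 2.80 and 3.16 FPKM in WT control, 5.40 and 5.53 in WT KPC, 3.63 and 3.12 in FoxP1SkmKO control, and 4.28 and 4.72 in FoxP1SkmKO KPC mice. The conditions did not overlap, and the log2 difference was 0.65 ± 0.168 (95% interval 0.31 to 0.99; adjusted p = 0.508). It was positive at every other time as well, at 0.81, 0.37, 0.50, 0.47 and 0.84 in order of CT, and passed the test at CT18 (adjusted p = 0.0476) and CT38 (adjusted p = 0.0102).

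Bcl3, a nuclear IκB protein, was 0.487 and 0.504 FPKM in WT control, 1.05 and 0.907 in WT KPC, 0.536 and 0.447 in FoxP1SkmKO control, and 0.969 and 0.894 in FoxP1SkmKO KPC mice. Both genotypes were close to each other within each condition, and the log2 difference was 0.96 ± 0.281 (adjusted p = 0.704). Of 18 genes of IL-6 family and STAT3 signaling 6 had an unadjusted p under 0.05, all higher, beside 2.67% of all genes. The list median was 0.25, at 0.40 in WT and 0.01 in FoxP1SkmKO mice, with 13 and 9 of the 18 positive. For the genotype difference 3 had an unadjusted p under 0.05, beside 4.51% of all genes. Stat3 itself differed by 0.22 ± 0.0904, the oncostatin M receptor Osmr by 0.54 ± 0.210 and the feedback inhibitor Socs3 by 0.41 ± 0.327. The receptor genes first in the list, Il6ra and Il6st, differed by 0.24 ± 0.199 and 0.01 ± 0.0697.

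Csf2rb2, which encodes a beta chain of the IL-3 receptor, was 0.630 and 0.552 FPKM in WT control, 1.52 and 1.52 in WT KPC, 0.489 and 0.617 in FoxP1SkmKO control, and 0.961 and 0.908 in FoxP1SkmKO KPC mice. The KPC mice were separate from the controls, by 1.06 ± 0.288 on the log2 scale (adjusted p = 0.635). Its neighbor Csf2rb, the common beta chain of the IL-3, IL-5 and GM-CSF receptors, differed by 0.87 ± 0.324 with overlap, and these paralogs may share reads. The 4 tested genes of this receptor family had a median of 0.50. At CT38 the 2 genes were called at 2.02 and 2.12.

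**Figure D3:**
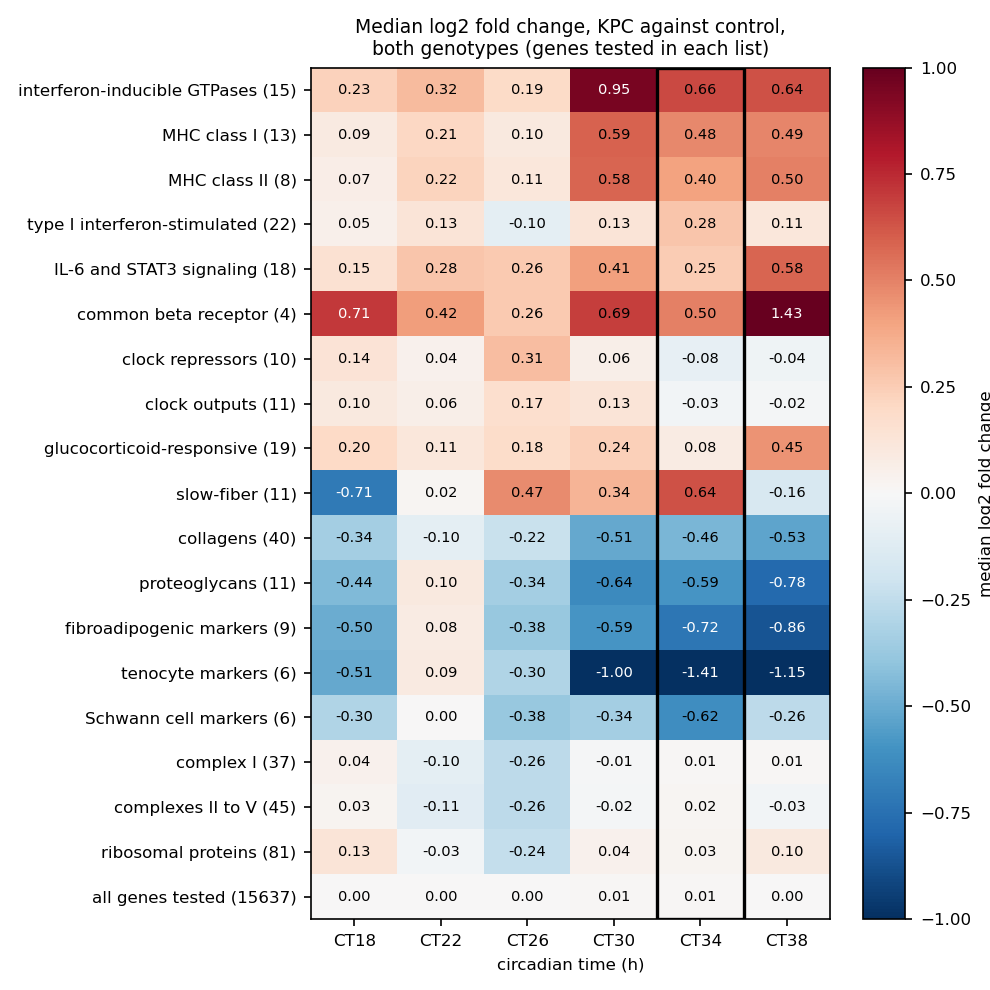
Median log2 fold change of KPC against control mice in both genotypes (colors and numbers) for 18 gene lists and all genes tested (rows, with the number of genes tested) at each circadian time (columns; CT34 is boxed); colors stop at −1 and 1. At CT34 interferon-inducible GTPases stand at 0.66 and tenocyte markers at −1.41, while complex I is at 0.01, against −0.26 at CT26.

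Slow-fiber genes were higher in KPC mice, with uneven values between replicates. Of 11 genes 9 were positive and the median was 0.64. Those with an unadjusted p under 0.05 numbered 7, all higher, beside 2.67% of all genes. Conditions did not overlap in 1 of the 11, beside 1.64% of all genes. Myh7, the slow myosin heavy chain, was 0.246 and 0.318 FPKM in WT control, 4.76 and 1.03 in WT KPC, 0.6 and 0.43 in FoxP1SkmKO control, and 4.45 and 0.499 in FoxP1SkmKO KPC mice. Replicate 1 of each KPC group stood far above every control mouse, and replicate 2 of the FoxP1SkmKO KPC group lay among the controls. The log2 difference was 2.82 ± 0.629 (adjusted p = 0.253), and 1.67 without FoxP1SkmKO KPC replicate 1.

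Slow troponin C, Tnnc1, was 0.882 and 1.08 FPKM in WT control, 6.34 and 3.07 in WT KPC, 2.16 and 1.81 in FoxP1SkmKO control, and 6.68 and 1.06 in FoxP1SkmKO KPC mice, with the same mice high (log2 difference 1.62 ± 0.448, and 0.69 without FoxP1SkmKO KPC replicate 1). Myl2 differed by 1.84 ± 0.629 without overlap, Myl3 by 0.64 ± 0.234, and the ancient myosin gene Myh7b, second in the list, by −0.26 ± 0.177. The list median was 0.38 without FoxP1SkmKO KPC replicate 1 and 0.46 without WT KPC replicate 1. At CT18 this list had a median of −0.71. The part of the sampled region of the muscle in these values was not tested.

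Genes of fast fibers, the kind that dominates this muscle, had a median of 0.05 over 18 genes. The fast myosin Myh4 was between 9050 and 10400 FPKM in all 8 mice (log2 difference −0.06 ± 0.0791). Myh1 and Myh2 differed by 0.09 ± 0.112 and 0.33 ± 0.193.

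Matrix genes were lower in KPC mice, with a wide spread between control mice. Of 40 collagen chains tested 36 were negative, 13 had an unadjusted p under 0.05, all lower beside 2.62% of all genes, and the median was −0.46. Leaving out WT control replicate 1 or FoxP1SkmKO control replicate 2 moved that median to −0.26. Col1a1, a chain of type I collagen, was 15.8 and 5.26 FPKM in WT control, 3.74 and 2.99 in WT KPC, 4.42 and 10.7 in FoxP1SkmKO control, and 6.72 and 3.67 in FoxP1SkmKO KPC mice. WT control replicate 1 and FoxP1SkmKO control replicate 2 were the 2 highest, the other controls overlapped with KPC mice, and the log2 difference was −1.09 ± 0.376 (adjusted p = 0.775), or −0.58 without WT control replicate 1.

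Col3a1 was 11.0 and 4.91 FPKM in WT control, 3.62 and 3 in WT KPC, 4.28 and 8.15 in FoxP1SkmKO control, and 7.10 and 3.85 in FoxP1SkmKO KPC mice, with the same 2 control mice highest (log2 difference −0.72 ± 0.302, and −0.37 without WT control replicate 1). Of 27 other matrix and integrin genes 25 were negative, with a median of −0.25 that was −0.13 without FoxP1SkmKO KPC replicate 2 and −0.15 without WT control replicate 1. The first listed, Tnxb and Lama2, differed by −0.36 ± 0.231 and −0.31 ± 0.184, or by −0.12 and −0.06 without WT control replicate 1. Small leucine-rich proteoglycans, which bind collagen fibrils, had a median of −0.59 (−0.30 without WT control replicate 1), at −1.05 in WT and −0.36 in FoxP1SkmKO mice. An unadjusted p under 0.05 was reached by 7 of 11, all lower, beside 2.62% of all genes. Conditions were without overlap in 0 of the 11, beside 1.32% of all genes. Decorin (Dcn) differed by −0.60 ± 0.280, biglycan (Bgn) by −0.40 ± 0.174 and fibromodulin (Fmod) by −1.23 ± 0.503. Without WT control replicate 1 the values of Dcn and Fmod were −0.31 and −0.39, and without FoxP1SkmKO control replicate 2 that of Bgn was −0.24.

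Markers of the cells that make matrix moved with these genes, and some belong to both kinds of list. All 9 fibroadipogenic markers were negative (median −0.72; −0.37 without WT control replicate 1), with summed FPKM of 77.2 to 177.0 in control and 55.3 to 116.0 in KPC mice. Pdgfra, the defining receptor of these cells, differed by −0.72 ± 0.339, or −0.43 without WT control replicate 1. Of 6 tenocyte markers 5 were negative (median −1.41; −0.64 without WT control replicate 1), with summed FPKM of 17.3 to 43.7 in control and 14.1 to 22.4 in KPC mice. In WT and FoxP1SkmKO mice the medians were −1.05 and −0.18 for the fibroadipogenic markers, and −2.17 and −0.65 for the tenocyte markers. For the genotype difference 0 of the 9 and 0 of the 6 had an unadjusted p under 0.05, beside 4.51% of all genes.

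Tenomodulin (Tnmd), a tendon membrane protein, was 2.59 and 0.323 FPKM in WT control, 0.137 and 0.352 in WT KPC, 0.686 and 1.54 in FoxP1SkmKO control, and 0.487 and 0.0454 in FoxP1SkmKO KPC mice. The conditions overlapped through WT control replicate 2, and the log2 difference was −2.30 ± 0.686 (adjusted p = 0.704), or −1.22 without WT control replicate 1. The tendon factor Scx differed by 0.20 ± 0.234. How far tendon or connective tissue in the sample contributed to the collagen values was not tested.

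**Figure D4:**
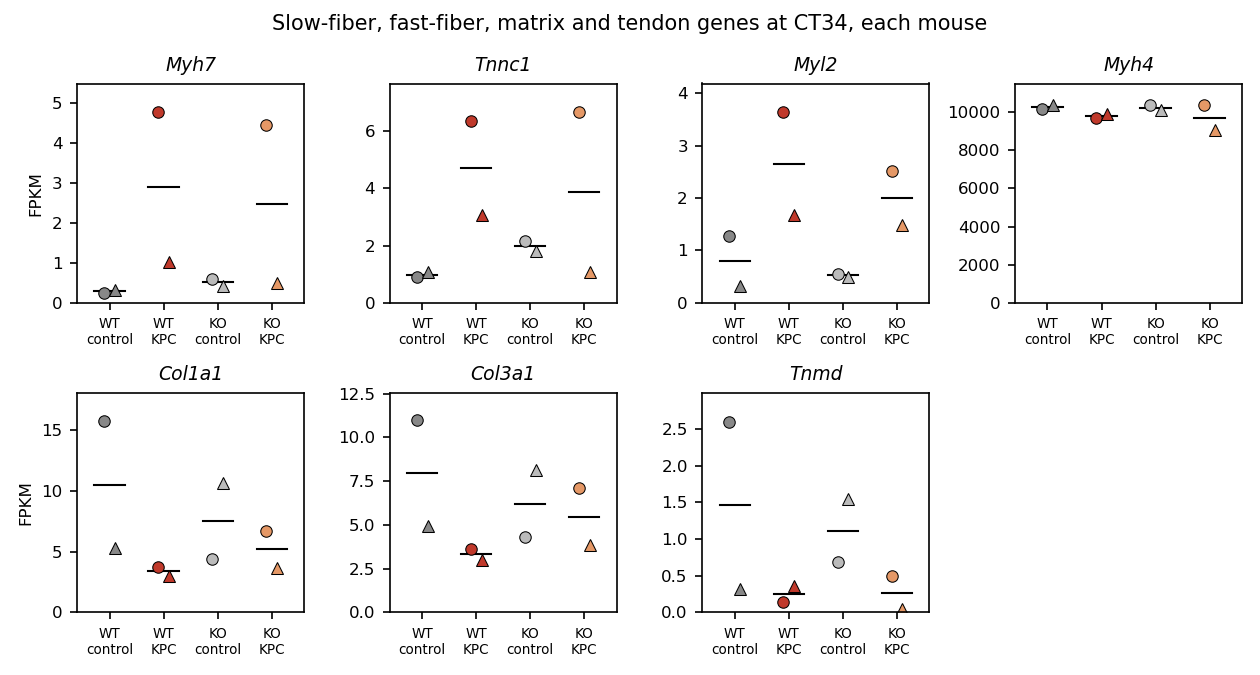
FPKM of slow-fiber, fast-fiber, matrix and tendon genes in each mouse at CT34, on linear axes from 0; circles are replicate 1, triangles replicate 2, bars group means of 2 mice. Myh7 and Tnnc1 are high in replicate 1 of both KPC groups, Col1a1, Col3a1 and Tnmd are high in WT control replicate 1, and Myh4 lies between 9050 and 10400 in every mouse.

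Schwann cell markers were lower in both genotypes. All 6 were negative, 4 of them with an unadjusted p under 0.05, beside 2.62% of all genes lower, and 0 passed the test. The median was −0.62 (−0.68 in WT and −0.62 in FoxP1SkmKO mice), and −0.79 to −0.46 with 1 library left out. Conditions were without overlap in 0 of the 6, beside 1.32% of all genes. The summed markers were 21.8 to 36.7 FPKM in control and 12.9 to 23.8 in KPC mice, and the share of nerve in the samples was not tested.

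A few genes of other functions are given next, chosen after their values were seen. Hspa12a, an HSP70 family member, was 1.09 and 1.43 FPKM in WT control, 0.664 and 0.740 in WT KPC, 1.45 and 1.2 in FoxP1SkmKO control, and 0.991 and 0.749 in FoxP1SkmKO KPC mice. No KPC mouse reached a control mouse, and the log2 difference was −0.71 ± 0.150 (adjusted p = 0.189). The potassium channel gene Kcna1 differed by −2.05 ± 0.444 (adjusted p = 0.225), on 1 to 30 reads. The serotonin receptor gene Htr7 differed by −1.43 ± 0.295 (adjusted p = 0.189), on 5 to 29 reads. Igfbp5, which binds insulin-like growth factors, differed by −0.39 ± 0.122 and the amylase gene Amy1 by 0.60 ± 0.219.

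The mitochondrial ribosomal RNA mt-Rnr1 was 630 and 584 FPKM in WT control, 1120 and 1110 in WT KPC, 689 and 642 in FoxP1SkmKO control, and 632 and 1030 in FoxP1SkmKO KPC mice. It was higher in both WT KPC mice and in 1 of 2 FoxP1SkmKO KPC mice, with a log2 difference of 0.61 ± 0.124 (adjusted p = 0.189). mt-Rnr2 differed by 0.48 ± 0.114. Libraries were made from poly-A RNA, and the 13 mitochondrial genes for respiratory subunits had a median of 0.09.

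The large metabolic lists had medians near that of all genes when both genotypes were averaged. The 37 nuclear genes of complex I had a median of 0.01 and the 45 of complexes II to V one of 0.02, with 0 and 2 at an unadjusted p under 0.05, whereas at CT26 the medians were −0.26 in both and 20 and 26 genes were called, beside 6.28% of all genes. The 81 ribosomal protein genes had a median of 0.03, the 20 genes of the tricarboxylic acid cycle 0.03 and the 21 of glycolysis 0.02. By genotype, complex I genes were positive in 29 of 37 in WT (median 0.08) and 7 of 37 in FoxP1SkmKO mice (−0.05), those of complexes II to V in 36 and 8 of 45 (0.11 and −0.06), and ribosomal protein genes in 71 and 27 of 81 (0.10 and −0.04). The genotype difference had an unadjusted p under 0.05 in 2, 5 and 10 of these genes, beside 4.51% of all genes, and 0 passed the test. The citrate synthase gene Cs was 158 to 171 FPKM in all 8 mice (log2 difference −0.02 ± 0.049). Of 27 genes of fatty acid oxidation 1 had an unadjusted p under 0.05, the mitochondrial carrier Ucp3 (0.45 ± 0.182). Pdk4, an inhibitor of pyruvate dehydrogenase, was 53.4 to 152 FPKM in control and 64.9 to 210 in KPC mice (0.60 ± 0.329). Without FoxP1SkmKO KPC replicate 2 the log2 differences of Ucp3 and Pdk4 were 0.18 and 0.06.

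Genes of muscle atrophy did not stand apart. The 14 ubiquitin ligases had a median of 0.05 and the 21 autophagy genes one of 0.06. The ligase gene Fbxo32 (atrogin-1) was 28 and 28.9 FPKM in WT control, 32.9 and 49.6 in WT KPC, 36.1 and 24.4 in FoxP1SkmKO control, and 21.8 and 32.0 in FoxP1SkmKO KPC mice. Its conditions overlapped, with a log2 difference of 0.19 ± 0.269 (95% interval −0.36 to 0.74). Trim63 (MuRF1) differed by 0.05 ± 0.119, the growth inhibitor Mstn by −0.00 ± 0.147, and the autophagy gene Map1lc3a by 0.10 ± 0.0782. The myogenic factors Myod1 and Myog differed by 0.35 ± 0.176 and 0.18 ± 0.275.

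The 12 genes of the integrated stress response had a median of 0.15 (0.07 without FoxP1SkmKO KPC replicate 1). Of them 3 had an unadjusted p under 0.05 and were higher, beside 2.67% of all genes. Among the 3 was the factor Atf4 at 0.17 ± 0.0691 (47.0 to 58.3 FPKM in control and 54.5 to 61.0 in KPC mice), and Atf3 differed by 0.37 ± 0.320. Heat shock (18 genes), hypoxia (14) and immediate early genes (21) had medians of 0.02, −0.01 and 0.03. The first listed members of the remaining lists also failed the test: Hspa1a (0.07 ± 0.267), Egln3 (−0.03 ± 0.146), Gys1 (0.06 ± 0.059), Slc2a1 (−0.24 ± 0.137), Srebf1 (−0.05 ± 0.121), Igf1 (−0.05 ± 0.228), Odc1 (−0.06 ± 0.131), Cish (−0.60 ± 0.568), Mt1 (−0.00 ± 0.234), Chrna1 (−0.34 ± 0.387), Myh3 (−0.00 ± 0.250), C1qa (0.01 ± 0.325), Lcn2 (0.54 ± 0.540) and Mmp2 (−0.73 ± 0.308). Smaller lists had medians of 0.05 (glycogen metabolism, 12 genes), 0.02 (insulin and mTOR signaling, 20), −0.02 (lipid synthesis, 19), −0.06 (denervation, 13), 0.01 (myogenic regulation, 11), −0.07 (myostatin and activin, 12), 0.11 (stress-responsive sarcomere genes, 16), 0.08 (forkhead factors, 9), 0.44 (acute phase, 14, or 0.17 without WT KPC replicate 2), 0.01 (complement, 13), −0.19 (matrix proteases and inhibitors, 13), 0.02 (metallothioneins and zinc, 6), −0.00 (polyamine metabolism, 13) and −0.00 (growth hormone and STAT5, 9). Cell markers were Pecam1 for endothelium (0.06 ± 0.0923), Acta2 for smooth muscle (0.17 ± 0.130), Adipoq for adipocytes (0.18 ± 0.675) and Pax7 for satellite cells (−0.49 ± 0.230). The medians of these 4 marker lists were 0.03, −0.20, 0.18 and −0.43, and that of 5 erythroid markers was −0.10. With 1 library left out, the endothelial median ran from −0.02 to 0.10, the adipocyte median from −0.34 to 1.0, the satellite cell median from −0.52 to 0.18 and the erythroid median from −0.44 to 0.13, so that none of these 4 kept its sign.

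Within each genotype, 2 KPC mice were compared with 2 control mice. In WT mice 0 genes (0%) passed the test and 948 had an unadjusted p under 0.05, and in FoxP1SkmKO mice the numbers were 0 (0%) and 633. DESeq2 on all libraries called 0 in WT mice and 1 in FoxP1SkmKO mice, the glycogen-targeting gene Ppp1r3c. limma called 0 in both genotypes, and edgeR with no filter called 221 in WT and 87 in FoxP1SkmKO mice. The interferon-inducible GTPases had medians of 0.93 in WT and 0.39 in FoxP1SkmKO mice, and the collagens −0.71 and −0.21. Of these 15 and 40 genes, 0 and 1 had an unadjusted p under 0.05 for the difference between the genotypes, beside 4.51% of all genes.

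One gene, or 0.0064% of those tested, differed between the genotypes in its KPC effect. Ccn1, which encodes a matricellular protein and lies on chr3:145352731-145355736 (mm39), was 9.21 and 9.91 FPKM in WT control, 15.5 and 17.6 in WT KPC, 16.0 and 20.1 in FoxP1SkmKO control, and 11.6 and 13.2 in FoxP1SkmKO KPC mice. The WT KPC mice were above their controls and the FoxP1SkmKO KPC mice below theirs, without overlap in either genotype. The log2 difference was 0.80 ± 0.162 in WT and −0.54 ± 0.159 in FoxP1SkmKO mice, neither of which passed the test alone (adjusted p = 0.156 and 1.0). The FoxP1SkmKO effect minus the WT effect was −1.34 ± 0.227 (adjusted p = 0.0202). Leaving out 1 library at a time, the difference ran from −1.49 to −1.17, and the call was lost without 5 of the 8 libraries.

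Other genes with unequal values did not pass. The immediate early gene Fos was 0.464 and 0.663 FPKM in WT control, 2.60 and 1.97 in WT KPC, 3.35 and 1.11 in FoxP1SkmKO control, and 1.94 and 0.758 in FoxP1SkmKO KPC mice (genotype difference −2.75 ± 0.809, adjusted p = 1.0). Ppp1r3c was 67.4 and 64.1 FPKM in WT control, 53.9 and 60.9 in WT KPC, 52.7 and 53.1 in FoxP1SkmKO control, and 73.4 and 149 in FoxP1SkmKO KPC mice. Its FoxP1SkmKO effect of 1.08 ± 0.204 (adjusted p = 0.133) rested in large part on replicate 2.

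That mouse was also the highest in 3 genes responsive to glucocorticoids. Zbtb16 was 12.1 and 13.4 FPKM in WT control, 12.5 and 14 in WT KPC, 11.8 and 12.1 in FoxP1SkmKO control, and 13.6 and 32.2 in FoxP1SkmKO KPC mice. Fkbp5 was 6.03 FPKM in FoxP1SkmKO KPC replicate 2 and 1.82 to 3.41 in the other 7 mice, and Tsc22d3 was 65.6 against 36.5 to 50.3. The 19 glucocorticoid-responsive genes had a median of 0.08, and −0.12 without this library. The log2 differences of Fkbp5 and Tsc22d3 were 0.35 ± 0.184 and 0.08 ± 0.0849.

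Cebpd, in that list, was 4.44 and 2.76 FPKM in WT control, 3.34 and 3.65 in WT KPC, 5.94 and 6.93 in FoxP1SkmKO control, and 3.27 and 5.38 in FoxP1SkmKO KPC mice. Both FoxP1SkmKO KPC mice were below their controls, the WT mice overlapped, and the log2 difference was −0.30 ± 0.177. At CT18, CT22, CT26, CT30 and CT38 it was 0.74, 0.53, 0.27, 0.70 and 1.68. The value at CT34 minus the mean of the others was −1.09 ± 0.195 (adjusted p = 0.0545).

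**Figure D5:**
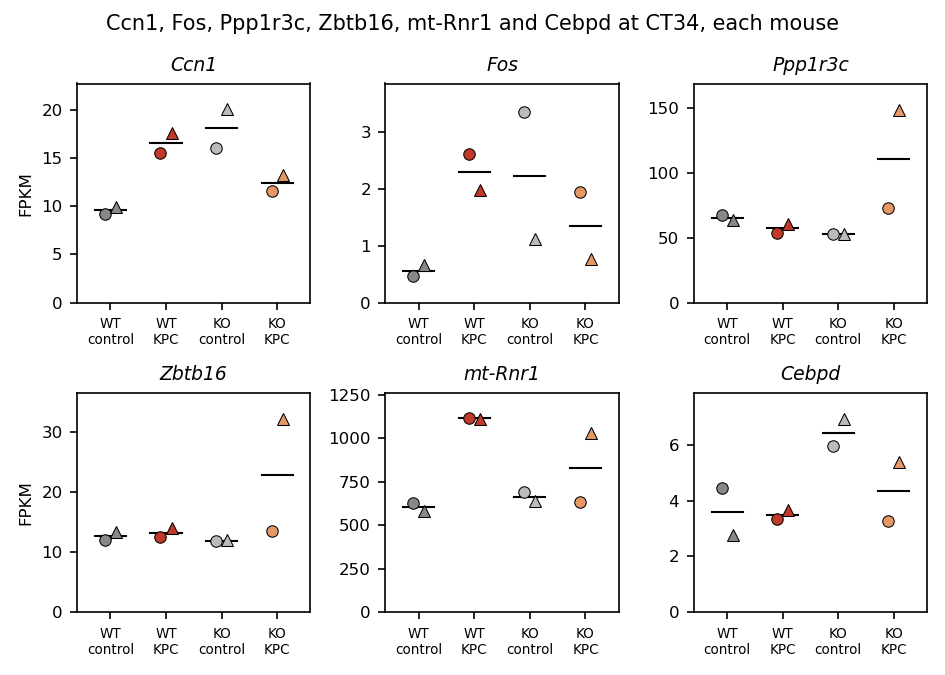
FPKM of 6 genes in each mouse at CT34, on linear axes from 0; circles are replicate 1, triangles replicate 2, bars group means of 2 mice. Ccn1 is higher with KPC in WT mice and lower in FoxP1SkmKO mice, and FoxP1SkmKO KPC replicate 2 is the highest mouse in Ppp1r3c (149) and Zbtb16 (32.2).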

How the data were processed

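RNA of tibialis anterior muscle was sequenced as poly-A libraries, 1 per mouse. The authors deposited raw read counts per gene on mm39 and FPKM values computed from them. The published methods name STAR and HTSeq, whereas the submitters' processing notes name HISAT2 2.0.5, with DESeq2 1.20.0. The deposited tables also hold the authors' normalized values, fold changes and p-values for each comparison of 4 libraries, which were not used. Genes missing from a count table had at most 1 read in a library there, recovered exactly from FPKM (367 to 1064 reads per library).

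Counts of all 48 libraries were fitted with edgeR 4.0.16 in R 4.3.3 (filterByExpr, TMM, quasi-likelihood, 1 coefficient per group, 24 residual and 8.611 prior degrees of freedom). Contrasts gave the KPC effect at CT34 averaged over genotypes, within each genotype, its genotype difference (FoxP1SkmKO minus WT) and its difference from the other 5 times. A gene was called where its p, adjusted by Benjamini-Hochberg over all 15637, was under 0.05. Errors are standard errors from the F statistic, and intervals are 95% intervals. Overlap was judged on log2 CPM. Alternatives used DESeq2 1.42.0 and limma 3.58.1. The test was also run on simulated data. Counts set the precision of low genes.

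The named genes were Foxp1, the clock lists, genes called, and the first 1 or 2 members of 56 lists, and any others were chosen after their values were seen. Members and lists were chosen with earlier results of these data known. Nothing in the sources says whether same-numbered mice were littermates. In the fits of all 48 libraries, p-values rest on the spread between mice of the same group, estimated over the 24 groups and not at CT34 alone. Replicates of a group differed by more than counting noise (chi-square per degree of freedom 4.79 to 11.3). Symbols with several identifiers used the first one tested. A few genes are not reported here.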

Additional observations from a re-analysis of the deposited data

Results flagged for a closer look

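The KPC effect on Ccn1 differed between the genotypes by the test of the difference itself, at −1.34 on the log2 scale (FoxP1SkmKO minus WT). DESeq2 called this difference on all libraries but not on the CT34 libraries alone.

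In 11 of 238 sets of 4 KPC or 4 control mice, 4.62%, 1 mouse stood apart from the other 3 by a gap that, as a share of the whole range, exceeded Dixon's 95% critical value, and chance gives about 1 in 20. FoxP1SkmKO KPC replicate 1 was the highest KPC mouse in Col1a2 (gap over range 0.944), Dcn (0.831), Mmp2 (0.909), Igf1 (0.879) and Myh1 (0.945). FoxP1SkmKO KPC replicate 2 was the highest KPC mouse in Zbtb16 (0.924). FoxP1SkmKO control replicate 1 was the highest control mouse in Npas2 (0.898), Gbp3 (0.860) and Tgtp1 (0.834). FoxP1SkmKO control replicate 2 was the highest control mouse in Myh2 (0.858), and WT control replicate 1 in C1qa (0.884).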

How the results depend on the processing

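With no filter on low counts, the numbers of called genes were 205 for both genotypes, 221 in WT mice, 87 in FoxP1SkmKO mice, 111 for the genotype difference and 71 for the difference from the other times. DESeq2 on the CT34 libraries alone called 23, 62, 9 and 8 in the first 4 of these, and edgeR on the CT34 libraries alone called 0, 12, 3 and 3. For the genotype difference, Ccn1 was not among the 8 genes of DESeq2 and was among the 3 of edgeR. DESeq2 on all libraries called 1 gene in FoxP1SkmKO mice (Ppp1r3c) and 1 for the difference from the other times (Cebpd). limma on log2(FPKM + 1) and on log2(FPKM + 0.1) called 0 for the genotype difference, where Ccn1 was −1.23 and −1.31. With 1 library left out, the counts ran from 0 to 3, 0 to 1, 0 to 2, 0 to 2 and 0 to 1. Without FoxP1SkmKO KPC replicate 1 the 3 genes called for both genotypes were mt-Rnr1, mt-Rnr2 and Ppp1r3c, and without WT control replicate 1 the gene was Atp5e.

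With the replicate block, 1 gene (Cebpd) was called for the difference from the other times and no other count moved. Over the genes tested, the log2 difference of replicate 1 from replicate 2 correlated between groups at −0.0707 to 0.0694. Whether same-numbered mice shared a litter or handling was not tested. The cause of the changes with the processing was not tested.

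C1qa was −0.01 with edgeR on the CT34 libraries alone. With 1 library left out, the sign changed in Npas2 (−0.34 to 0.58), Per2 (−0.10 to 0.02), Cry2 (−0.03 to 0.04), Bhlhe40 (−0.15 to 0.06), Ciart (−0.43 to 0.10), Dbp (−0.20 to 0.04), Nfil3 (−0.05 to 0.28), Klf15 (−0.21 to 0.03), Wee1 (−0.13 to 0.05), Usp2 (−0.03 to 0.06), Il6st (−0.03 to 0.05), Myh1 (−0.01 to 0.20), Trim63 (−0.06 to 0.14), Tsc22d3 (−0.07 to 0.20), Myog (−0.03 to 0.48), S100a8 (−0.66 to 1.40), C1qa (−0.17 to 0.25), Igf1 (−0.25 to 0.25), Srebf1 (−0.14 to 0.06), Hspa1a (−0.20 to 0.53), Egln3 (−0.13 to 0.07), Odc1 (−0.20 to 0.06) and Adipoq (−0.76 to 1). Mstn (−0.08 to 0.07), Mt1 (−0.19 to 0.15) and Myh3 (−0.33 to 0.22), at 0 with all libraries, lay on both sides of it.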
